A study of Mus musculus with 2 samples.

Results

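The mitosis genes described here are 40 mouse genes whose products drive or carry out cell division, taken as a named list. All 40 were present in both libraries, among 29373 gene symbols, of which 26549 were in both. Each cell was scored by the summed molecule counts (UMIs, unique molecular identifiers) of the 40 genes after every cell had been thinned at random to 3500 UMIs, so that deep and shallow cells were compared at equal depth. A cell with at least 5 such UMIs is called dividing below. The call is an RNA score and not a count of mitotic figures.

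The ovaries came from female ICR mice, an outbred stock, without a genetic modification named in the labels. Control mice received ddH2O, and exposed mice received polystyrene microplastics (PS-MPs) of 0.1 µm, also given as 100 nm, at 1 mg per 100 µL per mouse. Both groups were gavaged daily for 35 days from 3 weeks of age, and their ovaries were dissociated at 8 weeks. The study had 5 groups, of which 2 were sequenced, each as 1 library. The labels state n = 16 without saying whether this holds per group, and cells cannot be traced to a mouse. The comparison asks whether cells with mitotic RNA differed between the exposed and the control ovary. With 1 library per group there was no replicate and no test: every ratio compares these libraries, and every 95% interval covers counting error only, not differences between mice or preparations. Intervals of gene levels do not cover the spread between cells either.

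A cell that divides copies its DNA, then condenses its chromosomes, attaches them through kinetochores to a spindle of microtubules, pulls them apart and splits. Cyclin-dependent kinase 1 with cyclins A2 and B starts mitosis, and the anaphase-promoting complex ends it by marking cyclins for destruction. Most of the 40 mRNAs accumulate late in the cycle, so they serve as markers of cycling cells. In the ovary, the granulosa cells that surround each oocyte multiply as a follicle grows and stop when they become luteal cells. Oocytes are arrested in meiosis and store mRNAs for later use.

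The libraries held 15373 control and 15056 PS-MP cells, of which 14538 and 14412 were kept, and 3 cell labels occurred in both. Control cells had a median depth of 9426 UMIs and PS-MP cells of 8613.5. Cells were grouped into 18 clusters with listed cell cycle genes, and all genes that rose with the score, left out. The latter included Amh (r = 0.25), Hsd17b1 (0.32) and Inhbb (0.27), by which clusters are described below, and the granulosa marker Inha (0.28). They took no part in forming the clusters, though markers among them were still used to name classes. Classes were rebuilt from marker genes, so names are given as "-like". Granulosa-like cells formed clusters 0, 1, 2, 4, 5 and 9. Among its 10 leading genes cluster 0 had 1 marker of another class and 0 granulosa markers, although 11 of 12 granulosa markers reached 20 CPM in it (the class's summed counts scaled to a fixed total). Dividing shares and the medians of the members are therefore given by cluster number, and pooled with and without cluster 0; other pooled values include it. Luteal-like cells came from cluster 6, with 8 control and 1902 PS-MP cells, and cluster 11, with 238 and 142.

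Dividing cells were found mostly among granulosa-like cells. In the control library 3317 of 10217 granulosa-like cells were dividing, 32.5% (31.6 to 33.4), and in the PS-MP library 3549 of 9089, 39.05% (38.0 to 40.1). Oocyte-like cells apart, they made up 83.3% of all dividing control cells and 84.0% of all dividing PS-MP cells. Stromal fibroblast-like cells followed in number, with 369 and 330 dividing cells, 9.27% and 7.81% of the dividing cells.

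The other classes ran from shares like that of granulosa-like cells to 0. T, NK or innate lymphoid-like cells had the shares nearest to granulosa-like cells, at 42.6% (32.8 to 52.8) of 101 cells in the control and 36.0% (22.9 to 50.8) of 50 in the PS-MP library. Blood endothelial-like cells had 20.4% (16.3 to 24.98) and 27.7% (22.9 to 33.0), and stromal fibroblast-like cells 18.8% (17.1 to 20.6) and 18.8% (16.99 to 20.7). Macrophage or monocyte-like cells had 16.7% (14.1 to 19.6) and 12.0% (8.76 to 15.8). The intervals of the last 3 classes overlapped in the control library and stood apart, in the order given, in the PS-MP library. The classes under 200 cells in a library were imprecise: smooth muscle or pericyte-like cells had 12.8% and 16.1%, conventional dendritic-like cells 16.4% and 4.76%, and plasmacytoid dendritic-like cells 7 of 70 and 3 of 21 cells.

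Low shares were found in steroid-making and surface cells. Theca-like cells, which make androgens around the follicle, had 6 dividing cells among 531 in the control, 1.13% (0.416 to 2.44), and 13 among 537 in the PS-MP library, 2.42% (1.295 to 4.10). These shares depend on how theca-like cells were delimited: with all variable genes used for clustering they were 8.46% and 6.34%. Luteal-like cells had 5.28% (2.84 to 8.87) and 7.93% (6.79 to 9.18). Their dividing cells belonged to different clusters, cluster 11 for 12 of the 13 control cells and cluster 6 for 157 of the 162 PS-MP cells. The luteal-like shares thus compare different clusters. Within cluster 11 the shares were 5.04% and 3.52%, a ratio of 0.698 (0.193 to 2.13). Surface epithelium-like cells had 0 of 20 and 0 of 12, which allows shares of up to 16.8% and 26.5% (exact binomial limits).

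**Figure D1:**
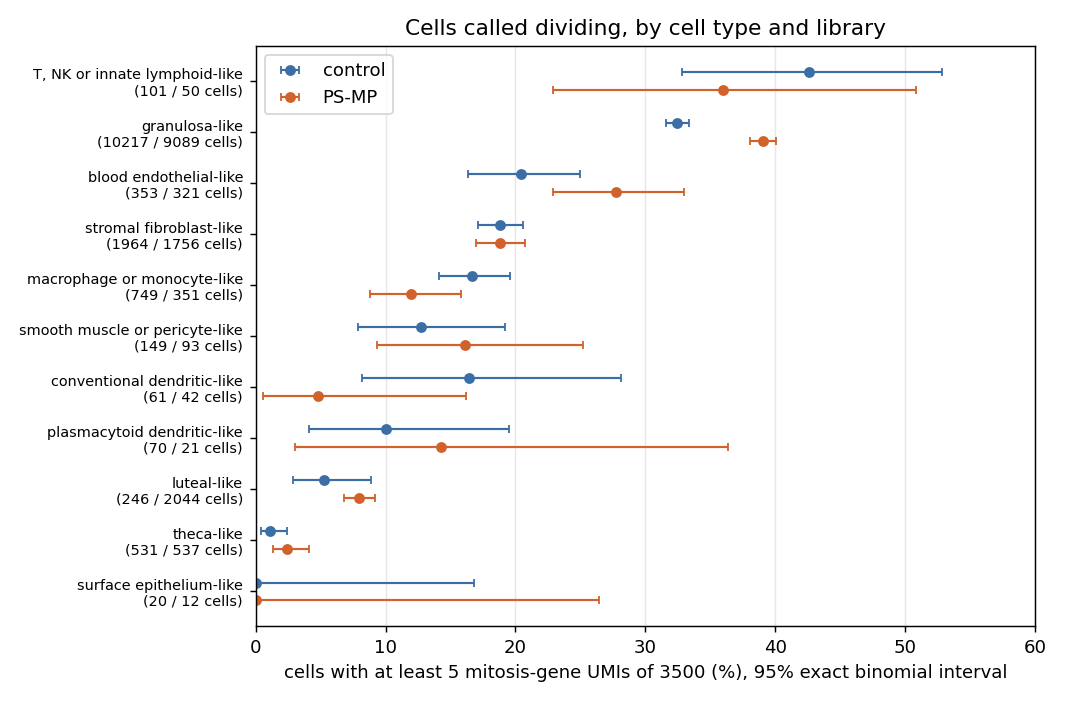
Share of cells with at least 5 mitosis-gene UMIs among 3500 (x axis, percent) in each cell class (y axis, with the numbers of control and PS-MP cells), oocyte-like cells apart; points are the libraries and bars the exact 95% binomial intervals. Granulosa-like shares of 32.5% and 39.05% do not overlap in their intervals, stromal fibroblast-like shares lie together at 18.8%, and theca-like shares lie near 0.

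Cells outside these calls also carried mitosis-gene UMIs. Granulosa-like cells that were not dividing had means of 0.977 UMIs per 3500 (control) and 1.16 (PS-MP), against 0.579 and 0.584 in theca-like cells, a class with few dividing cells. At least 1 UMI was found in 69.3% and 76.5% of granulosa-like cells and in 41.1% and 44.1% of theca-like cells, at median depths of 9915 and 8952 UMIs in granulosa-like and 9960 and 8026 in theca-like cells. Free RNA gives such counts in cells that do not transcribe a gene, and its part in them was not tested. Among dividing granulosa-like cells the median score was 21 for control and 19 for PS-MP cells, spread over a median of 13 of the 40 genes in both. Just inside the threshold, 4.14% and 4.91% of granulosa-like cells had 5 or 6 UMIs, and just outside it 8.24% and 9.75% had 3 or 4.

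**Figure D2:**
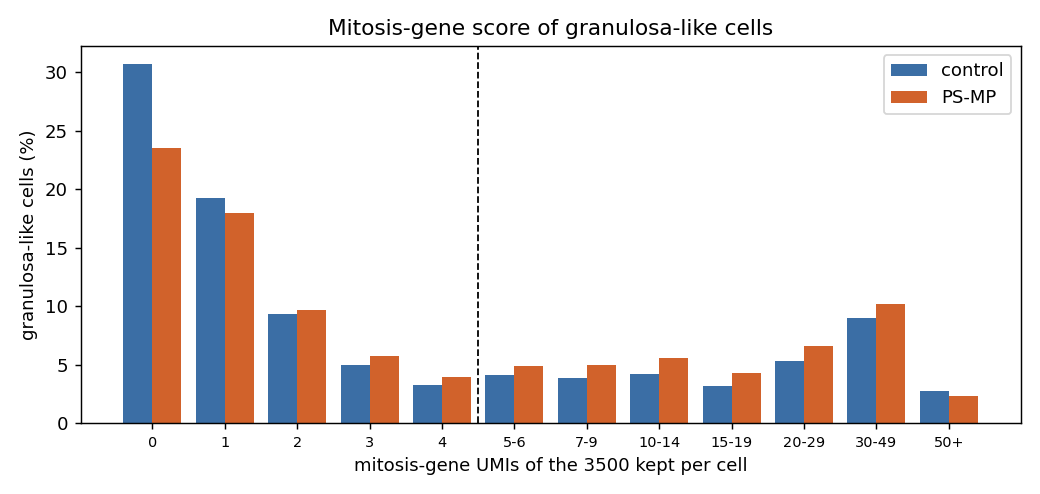
Distribution of the mitosis-gene score (x axis, UMIs of the 40 genes among the 3500 kept per cell, in unequal bins) over granulosa-like cells (y axis, percent of the library's cells); the dashed line marks the threshold of 5. Cells at 0 made up 30.7% of the control and 23.5% of the PS-MP library; the bins widen to the right, so bar heights cannot be compared between bins of unequal width.

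Dividing cells differed from other cells in depth and, in several classes, in granulosa-marker UMIs, whose source was not tested. Before thinning, dividing granulosa-like cells had median depths of 13532 (control) and 11659 UMIs (PS-MP), against 8893 and 7807 in the others; without thinning the dividing shares were 31.3% and 37.5%. In several other classes the dividing cells carried more granulosa-marker UMIs per 3500. The means in control cells were 16.5 against 5.71 in endothelial-like cells, 17.8 against 7.18 in macrophage or monocyte-like cells and 18.5 against 7.93 in theca-like cells, while in stromal fibroblast-like cells they were 3.05 and 3.51. Of the called doublets, which had been left out, 40.0% of 315 in the control and 44.4% of 358 in the PS-MP library met the threshold. In cells with under 10 granulosa-marker UMIs the dividing shares were 15.9% and 23.8% in endothelial-like, 12.8% and 7.99% in macrophage or monocyte-like, 40.0% and 35.0% in lymphoid-like and 0.528% and 1.16% in theca-like cells. Luteal-like shares under that limit were 0.637% of 157 control cells and 4.22% of 498 PS-MP cells.

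Pooled over the granulosa-like clusters, the dividing share was 1.203-fold higher in the PS-MP library (1.15 to 1.26), and without cluster 0 it was 1.22-fold higher, at 29.2% and 35.7%. Within the clusters the ratio ran from 0.915 in cluster 2 to 1.44 (0.696 to 2.92) in cluster 9, and lay below the pooled ratio in clusters 0, 1, 2, 4 and 5. Cluster 0, with Slc38a3 among its leading genes, had 44.3% dividing cells in the control and 48.3% in the PS-MP library. Cluster 4, which had Amh among the top 10, had 47.2% and 49.1%, and cluster 5, led by Inhbb and Hsd17b1, had 58.9% (55.5 to 62.2) and 62.0% (59.7 to 64.2). Cluster 2, led by Cyp19a1 and Inhba, genes of large antral follicles, went the other way at 33.9% (32.0 to 35.9) and 31.0% (28.6 to 33.5). Clusters 1 and 9 had few dividing cells, with 8.44% and 9.99% in cluster 1 and 3.04% and 4.37% in cluster 9. The intervals of the libraries overlapped in clusters 1, 2, 4, 5 and 9, and those of cluster 0 met at 46.3% to 46.4%.

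The libraries also differed in how the cells were spread over clusters. Genes that fell as the score rose, such as Cpe (r = -0.44 in granulosa-like cells), were not left out of clustering. The clusters may thus partly sort cells by division, so weighting by cluster or sub-cluster cannot separate cell mix from division. Cluster 5, where most cells were dividing, took in 852 control and 1806 PS-MP cells, against 2411 and 1389 in cluster 2. Weighted to the same mix of clusters, that of both libraries together, the dividing shares were 34.7% and 36.2%, a ratio of 1.04. With 12 finer sub-clusters weighted alike the ratio was 1.09. In 3 of the 12 the interval of the ratio lay above 1. These were sub-cluster 0, at 51.1% and 57.1% (1.02 to 1.22), sub-cluster 1, at 8.26% and 10.8% (1.05 to 1.64), and sub-cluster 2, at 48.7% and 55.5% (1.003 to 1.297). It included 1 in the others. A difference that came with the exposure and a difference between preparations cannot be told apart with 1 library per group.

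**Figure D3:**
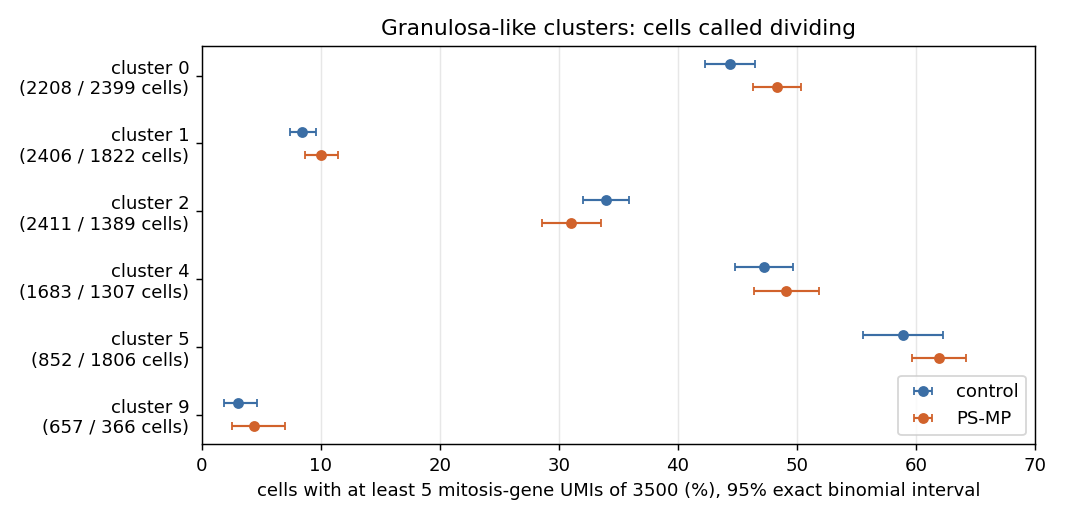
Dividing share (x axis, percent, exact 95% binomial intervals) in the 6 granulosa-like clusters (y axis, with the numbers of control and PS-MP cells). Shares run from 3.04% in cluster 9 to 62.0% in cluster 5, a wider span than any difference between the libraries within a cluster.

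The 40 genes were concentrated in the same cells. With each gene left out of the call in turn, cells called by the other 39 held between 84.9% (Kif20b, a kinesin) and 97.1% (Hmmr, a spindle protein) of its granulosa-like control UMIs, with a median of 93.6%, although these cells were about 32.3% of the class. The PS-MP library gave 85.0% (Kif20b) to 97.3% (Depdc1a), with a median of 93.6%. CPM values in dividing cells exceeded those in other cells by 8.03-fold (Kif20b) to 47.6-fold (Hmmr) in the control library. Across 19306 granulosa-like cells, the log level of each gene correlated with the score of the other members at r = 0.29 (Kif22) to 0.76 (Top2a), a description over cells that share library and depth. The genes outside all lists with the highest correlation to the score were Hmgb2 (r = 0.76), a chromatin protein, H2az1 (0.71), a histone variant, Pclaf (0.71), a partner of the replication clamp, and Tuba1b (0.68), a tubulin.

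Genes of this kind are known to share promoter elements: CCAAT boxes bound by NF-Y, and the cell cycle homology region, TTTGAA or TTCGAA, through which the DREAM complex holds them off in resting cells. The RefSeq promoter table (build GRCm38.p6; the submitters' notes name GRCm39 for the reads) held 37 windows for 35 of the 40 genes, each from 250 bases before to 50 after the start. On either strand, TTTGAA was in 81.1% of these windows against 17.9% of all 32851 windows, TTCGAA, which reads alike on both strands, in 8.11% against 1.56%, and CCAAT in 75.7% against 37.4%. At least 2 CCAAT were in 51.4% against 11.7%, and either homology motif together with CCAAT in 70.3% against 7.52%. A match is a description of the letters and not a bound site. The 100 bases before the start are shown for 4 genes with both motifs and for Ccnb1. The window of Ccnb1 held CCAAT and neither TTTGAA nor TTCGAA. The 4 genes are Cdk1, the anaphase-promoting complex partners Cdc20 and Ube2c, and Top2a, the chromosome enzyme on which the score leans. Capitals mark the motifs on either strand.
Cdk1: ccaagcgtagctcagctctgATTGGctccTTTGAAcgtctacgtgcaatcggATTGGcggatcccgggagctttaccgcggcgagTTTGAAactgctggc
Cdc20: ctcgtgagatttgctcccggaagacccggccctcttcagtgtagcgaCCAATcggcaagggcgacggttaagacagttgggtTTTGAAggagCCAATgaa
Ube2c: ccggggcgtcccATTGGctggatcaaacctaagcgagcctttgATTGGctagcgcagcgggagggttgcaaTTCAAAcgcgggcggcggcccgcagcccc
Top2a: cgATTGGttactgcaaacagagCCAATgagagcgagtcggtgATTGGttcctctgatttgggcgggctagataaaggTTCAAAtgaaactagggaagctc
Ccnb1: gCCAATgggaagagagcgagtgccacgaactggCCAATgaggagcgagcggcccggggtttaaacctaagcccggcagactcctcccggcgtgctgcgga
On GRCm38.p6 these windows lie before Cdk1 at chr10:69352913-69353012 (minus strand), Cdc20 at chr4:118437344-118437443 (minus strand), Ube2c at chr2:164769829-164769928 (plus strand), Top2a at chr11:99024190-99024289 (minus strand) and Ccnb1 at chr13:100786487-100786586 (minus strand). In Cdk1, Cdc20, Ube2c and Top2a the homology motif nearest the start began 15, 18, 29 and 23 bases before it, with CCAAT 28 to 35 bases further upstream.

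In granulosa-like cells, 38 of the 40 genes reached 20 CPM in a library. Of these, 2 were at least 1.2-fold higher in the PS-MP library (Spc24 and Aurkb), against 1.33% of all 7355 genes measured there, and 0 were at least 1.2-fold lower, against 4.32%. The median log2 ratio was 0.08 for the 38 genes and -0.02 for all genes measured. Counting intervals lay above 1 for 29 of the 40 genes, below 1 for Mki67 alone and included 1 for 10. The same count over all genes is not given, so these numbers have no background. With sub-clusters weighted alike the median was 0.02. In dividing cells, called for each gene by the other 39, the picture turned: 40 genes reached 20 CPM, 1 was at least 1.2-fold higher (Spc24), against 1.68% of 7254 genes, and 1 lower (Mki67), against 3.83%. The median log2 ratio was -0.11, against -0.02 for all genes. The intervals lay below 1 for 28 genes, above 1 for 3 and included 1 for 9, again without a count over all genes. The pooled class thus had a larger dividing share in the PS-MP library, while most of the genes made up slightly less of the RNA of its dividing cells. Without cluster 0 the medians were 0.08 over 37 genes in all and -0.12 over 40 genes in dividing cells. There 3 genes were at least 1.2-fold lower, a count given without the share over all genes. Clusters 0, 1, 2, 4 and 5 had medians of 0.01, -0.08, -0.22, -0.06 and -0.05 in all cells, and cluster 9 had 0.54 over 10 measured genes. In dividing cells these medians were -0.08, -0.29, -0.12, -0.10 and -0.12, and 0.17 in cluster 9, which had few dividing cells.

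The genes that start mitosis were higher in all granulosa-like cells and near equal in the dividing ones. Cdk1, the kinase itself, stood at 141 CPM in control and 166 CPM in PS-MP cells, a ratio of 1.18 (1.15 to 1.202), and at 313 and 321 CPM in dividing cells, a ratio of 1.03 (1.00 to 1.05). Ccnb1, cyclin B1, stood at 84.2 and 96.2 CPM, and at 197 and 196 CPM in dividing cells. Ccnb2 had ratios of 1.13 in all and 0.963 in dividing cells, and Ccna2, cyclin A2, which also acts in replication, 1.09 and 0.945. Ube2c, the ubiquitin-conjugating enzyme of the anaphase-promoting complex, stood at 250.3 and 280.5 CPM, and Cdc20, its activator, at 66.1 and 69.6 CPM; in dividing cells their ratios were 0.974 and 0.910.

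Among the 6 kinases other than Cdk1, Aurkb and Aurka had the highest ratios. Aurkb, which corrects faulty attachments at centromeres, stood at 35.7 and 43.7 CPM, a ratio of 1.22 (1.17 to 1.28), and at 82.0 and 87.7 CPM in dividing cells. Its ratio was 0.887 in cluster 2 and between 1.07 and 1.201 in clusters 0, 4 and 5, so it did not differ the same way in every cluster. Aurka, the centrosome kinase, had ratios of 1.15 and 1.01 and Plk1, which acts from entry to cytokinesis, 1.11 and 0.962. The spindle checkpoint kinases were lower in dividing cells, with ratios of 0.897 for Bub1, 0.929 for Bub1b and 0.909 for Ttk.

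Kinesins, the motors of the spindle, had a median log2 ratio of -0.13 in dividing cells. Kif11, which pushes the spindle poles apart, stood at 99.5 CPM in control and 83.2 CPM in PS-MP cells, a ratio of 0.837 (0.8004 to 0.875). Kif2c, which shortens microtubules at kinetochores, had 0.862 and Kif4, a chromosome motor, 0.878. Kif20a, which works in cytokinesis, stood at 68.1 and 68.2 CPM. Spindle proteins were lower in dividing cells as well, with ratios from 0.877 (Ckap2l) to 0.961 (Hmmr), Prc1 and Tpx2 standing at 0.904 and 0.902.

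Kinetochore genes held the highest ratio of the list, and the subunits of 1 complex did not go together. Spc24 and Spc25 form the inner end and Ndc80 and Nuf2 the outer end of the NDC80 complex, which grips microtubules. Spc24 stood at 50.04 and 76.4 CPM in granulosa-like cells, a ratio of 1.53 (1.47 to 1.58), and at 106 and 141 CPM in dividing cells, a ratio of 1.33 (1.28 to 1.38). Its partner Spc25 stood at 165 and 153 CPM in dividing cells, a ratio of 0.926, Ndc80 at 52.8 and 45.7 CPM, a ratio of 0.866, and Nuf2 at 90.2 and 87.9 CPM. Knl1, the scaffold of the checkpoint, had a ratio of 0.849 in dividing cells, and Birc5, survivin, 0.984.

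Spc24 had ratios above 1 in the 4 granulosa-like clusters where it was measured in all cells, and in dividing cells of all 6. Clusters 0, 4, 5 and 2 had ratios of 1.38, 1.53, 1.17 and 1.14. In dividing cells the 6 clusters had 1.11 (cluster 5) to 1.92 (cluster 9, where the interval of 0.945 to 4.01 included 1). Ratios of Spc24 within the 12 sub-clusters are not given here. Sub-cluster 2, with 597 control and 2464 PS-MP cells, had Spc24 among its 10 leading genes. The part of this uneven sub-cluster in the pooled Spc24 ratio was not tested. In cells not called dividing Spc24 stood at 11.1 and 19.2 CPM. Outside the granulosa-like class it had ratios of 1.201 (1.07 to 1.35) in stromal fibroblast-like and 1.84 (1.33 to 2.57) in endothelial-like cells, and 1.02 (0.726 to 1.42) in macrophage or monocyte-like cells. In the GENCODE M21 annotation of GRCm38 no other gene listed in the files overlaps Spc24 or Mki67.

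Mki67 went the other way. This gene encodes the Ki-67 protein that coats mitotic chromosomes, and it is the usual stain for proliferation. It stood at 177 and 164 CPM in granulosa-like cells, a ratio of 0.925 (0.905 to 0.945), and at 411 and 331 CPM in dividing cells, a ratio of 0.805 (0.787 to 0.823). The ratio in dividing cells was between 0.735 and 0.850 in clusters 0, 1, 2, 4 and 5, and 1.12 (0.784 to 1.59) in cluster 9. In dividing stromal fibroblast-like cells it was 0.825 (0.768 to 0.886). Top2a, the topoisomerase that untangles chromosomes, had a ratio of 1.04 in all granulosa-like and 0.894 in dividing cells. By the summed score a larger share of granulosa-like cells was dividing in the PS-MP library, while Mki67 mRNA was lower.

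**Figure D4:**
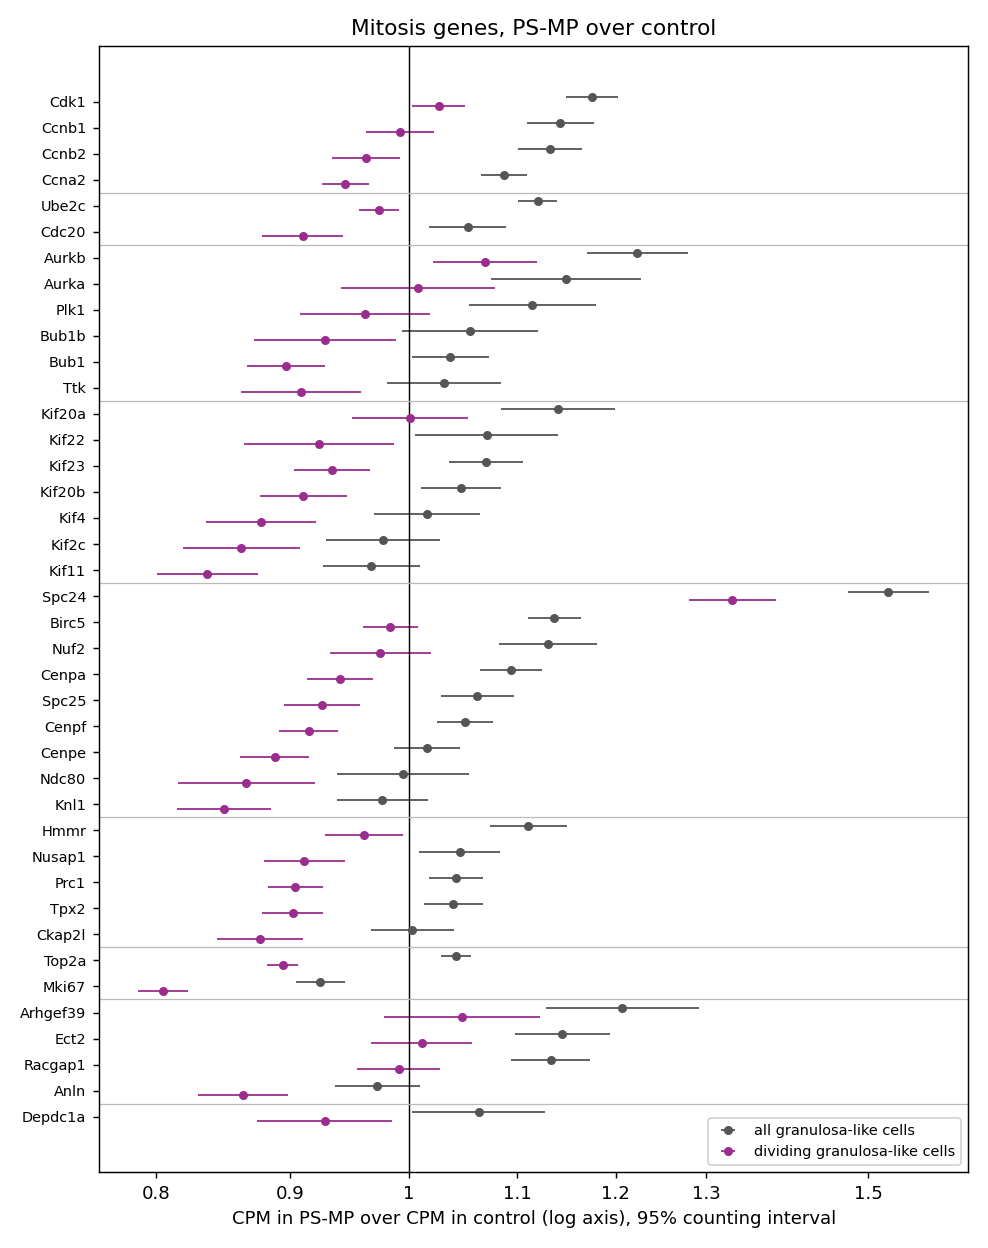
Ratio of CPM in the PS-MP over the control library (x axis, log scale, with 95% counting intervals) for the 40 genes (y axis, grouped by role between grey lines) in all granulosa-like cells and in those called dividing by the other 39 genes. Each of the 40 genes lies further left in dividing cells than in all cells; Spc24 lies above 1 in both and Mki67 below 1 in both.

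Cytokinesis genes were spread around 1 in dividing cells, where Anln, anillin, had a ratio of 0.864, Racgap1 0.991 and Ect2, which sets off the contractile ring at the furrow, 1.01. Arhgef39, a guanine nucleotide exchange factor, stood at 15.8 and 19.1 CPM in all granulosa-like cells, below the minimum of 20 CPM, and had ratios of 1.21 and 1.05. By annotation, 10 of the 40 genes overlap another gene listed in the files, 7 of them a protein-coding gene on the opposite strand (Ccna2, Cdc20, Ube2c, Nusap1, Kif4, Kif20a and Prc1). Whether the counting used strand is not given in the sources used here, so the reads of such pairs may be mixed.

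Replication genes were used to set the members against an earlier part of the cycle. A list of 42 replication genes gave at least 5 of 3500 UMIs in 86.1% and 87.4% of dividing granulosa-like cells. Cells with both kinds of RNA formed 28.0% (27.1 to 28.8) of the granulosa-like class in the control and 34.1% (33.1 to 35.1) in the PS-MP library. Cells with replication RNA alone made up 19.0% and 20.7%, cells with mitosis RNA alone 4.51% and 4.93%, and cells with neither 48.5% (47.6 to 49.5) and 40.3% (39.3 to 41.3). Most of the pooled difference between the libraries thus lay in cells with both kinds, and the clusters differed. Cells with both kinds were 38.8% and 43.1% of cluster 0 and 52.6% and 56.3% of cluster 5, control then PS-MP. They were 42.8% and 43.9% of cluster 4, 5.94% and 6.64% of cluster 1 and 1.98% and 3.01% of cluster 9. In cluster 2 they were fewer in the PS-MP library, at 28.0% and 24.9%. Cells with replication RNA alone were 12.5% and 18.9% of cluster 9.

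The cells with mitosis RNA alone had another mix of the 40 genes. Taking each gene's share of the member UMIs, Ccnb2 was 1.94 times as large a part there as in cells with both kinds in the control library and 1.89 times in the PS-MP library. Cenpa, the histone of centromeres, had 1.88 and 1.92, Cenpf 1.57 and 1.36 and Cdc20 1.40 and 1.42. At the other end were Top2a with 0.587 and 0.647, Aurkb with 0.626 and 0.629, Kif11 with 0.656 and 0.678, and Spc24 with 0.693 and 0.745. The ends of the order were alike in the libraries.

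In other cell types the members were measured in fewer cells. In stromal fibroblast-like cells 32 of the 40 genes reached 20 CPM, of which 1 was at least 1.2-fold higher (Spc24), against 4.38% of all genes, and 11 lower, against 5.61%; the median log2 ratio was -0.23. Of the 32, Ndc80 had the lowest ratio, at 20.7 and 13.0 CPM, a ratio of 0.628 (0.524 to 0.750), and Prc1 had 0.748. The share of dividing stromal cells was the same in both libraries, with a ratio of 1.00 (0.860 to 1.16), and in those dividing cells the median was -0.15. In macrophage or monocyte-like cells 26 of 28 genes were at least 1.2-fold lower, against 10.9% of all genes, and 0 higher, against 12.8%. Their median was -0.67, with Nusap1 at 43.5 and 14.3 CPM and Ccnb1 at 41.4 and 19.0 CPM, and the ratio of the dividing shares was 0.717 (0.493 to 1.02).

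Endothelial-like cells had the opposite direction. Of 33 genes measured there, 22 were at least 1.2-fold higher, against 12.9% of all genes, and 0 lower, against 17.9%, with a median log2 ratio of 0.36. Aurkb stood at 16.6 and 29.1 CPM and Tpx2, which builds the spindle around chromosomes, at 71.6 and 115 CPM. The ratio of the dividing shares was 1.36 (0.985 to 1.88), and 1.495 (1.01 to 2.22) among cells with under 10 granulosa-marker UMIs; in macrophage or monocyte-like cells under the same limit it was 0.626 (0.376 to 1.00). The part of granulosa-marker RNA in these differences was not tested beyond that limit. Since a class total sums over cells, more dividing cells and more mRNA per dividing cell cannot be told apart in such ratios.

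The levels of the 40 genes in dividing cells were alike in some cell types and not in others. The cells were called by the summed score of these same genes, which favours alike levels. Counts over all genes are not given beside those that follow. Against dividing granulosa-like cells, 39 of the 40 genes lay within 1.5-fold in dividing stromal fibroblast-like control cells and 37 in the PS-MP ones. Kif20a lay outside in both, at 119 and 118 CPM against 68.2 and 68.2 CPM. In dividing endothelial-like cells 37 and 35 genes lay within 1.5-fold, and in lymphoid-like cells 35 and 31. Macrophage or monocyte-like cells differed more, with 30 and 24 genes within 1.5-fold and the other 10 and 16 lower. Dividing theca-like and luteal-like cells were few. In the 6 and 13 theca-like cells 21 and 25 genes lay within 1.5-fold, with 17 higher in the control and 15 lower in the PS-MP library, and in the luteal-like cells 4 and 29, with 36 lower in the 13 control cells.

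Oocyte-like cells carried mitosis-gene RNA of another make-up. At least 5 UMIs were found in 90.9% (82.2 to 96.3) of the 77 in the control and 86.5% (78.0 to 92.6) of the 96 in the PS-MP library, and among those with under 10 granulosa-marker UMIs 36 of 36 and 31 of 32. For these arrested cells the score is not a sign of division. Ube2c made up 21.5% of the member UMIs in oocyte-like cells of both libraries, against 7.85% and 8.19% in dividing granulosa-like cells, and stood at 1062 and 949 CPM against 578 and 563 CPM. Birc5 stood at 606 and 620 CPM against 299 and 294 CPM. Ect2 at 204 and 161 CPM, Kif4 at 146 and 111 CPM, Ndc80 at 108 and 87.0 CPM and Spc24 at 199.9 and 243 CPM were also above the dividing granulosa-like level in both libraries, as was Ttk.

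Over all oocyte-like cells, 28 of the 40 genes were at least 1.5-fold below dividing granulosa-like cells in both libraries. Among oocyte-like cells with under 10 granulosa-marker UMIs, 18 were so. The same counts over all genes are not given, so these numbers have no background. Top2a stood at 104 and 85.4 CPM against 1012 and 915 CPM, and Mki67 at 43.6 and 34.7 CPM against 408 and 329 CPM. Cdc20, whose complex partner Ube2c was high, stood at 33.1 and 34.1 CPM against 148 and 135 CPM. Oocyte-like cells also held granulosa-marker RNA. In those with under 10 granulosa-marker UMIs Ube2c was higher still, at 1395 and 1299 CPM, and Top2a lower still, at 29.3 and 42.0 CPM.

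**Figure D5:**
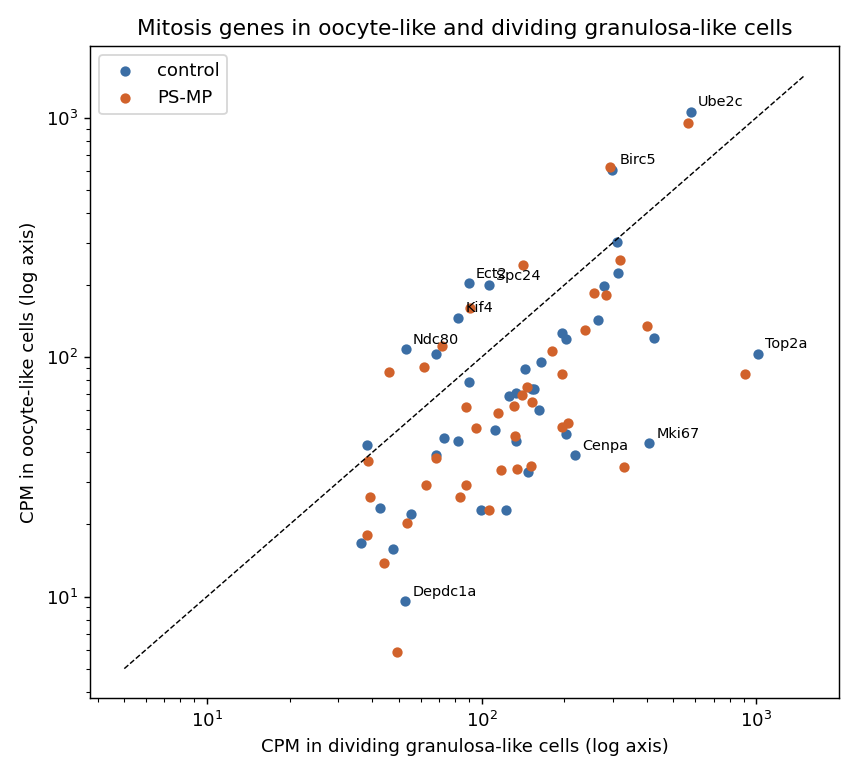
Level of each of the 40 genes (CPM, log axes) in oocyte-like cells (y axis) against dividing granulosa-like cells (x axis); each point is a gene in 1 library and the dashed line marks equal levels. Ube2c, Birc5, Ect2, Kif4, Ndc80 and Spc24 lie above the line, and Top2a, Mki67, Cenpa and Depdc1a lie far below it.

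Other cell cycle genes had medians like that of the members in granulosa-like cells. Of 54 other mitosis genes 40 reached 20 CPM, with 1 at least 1.2-fold higher, 0 lower and a median log2 ratio of 0.09. The higher gene was Cenpm, a centromere protein, at 33.5 and 44.2 CPM. Of 42 replication genes 36 were measured, with 2 higher, 0 lower and a median of 0.11; these were Cdt1 and Cdc6, which load the replicative helicase, at 36.3 and 44.1 CPM and at 17.3 and 20.9 CPM. All 12 measured genes of the 18 G1 cyclins and cyclin-dependent kinase inhibitors lay within 1.2-fold. Of 11 oocyte meiosis genes 2 were measured, of which Cpeb1, a translational regulator of stored mRNA, was lower, at 20.8 and 14.3 CPM. In dividing cells the replication genes had a median of -0.04 and the other mitosis genes of -0.10, with Sgo2a, the guardian of centromere cohesion, at 101 and 82.0 CPM. Btg2, an antiproliferative gene that is also an early response gene, was the 1 gene of these lists at least 1.2-fold higher there, at 328 and 399 CPM.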

How the data were processed

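Single ovarian cells were captured with the BD Rhapsody bead system and sequenced on an Illumina instrument, per the labels' protocols. The authors deposited raw UMI counts per gene and cell, whole numbers with no normalization, as 1 matrix per library. The submitters' processing notes name GRCm39 and Seurat without a role; for the aligner, counting tool, strand setting and cell calling, nothing is stated (not given in the sources used here). The shallowest deposited cells had 3738 UMIs (control) and 3575 (PS-MP).

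Cells with at least 500 genes and at most 25% mitochondrial counts were kept, which removed 520 control and 286 PS-MP cells, and scrublet (expected rate 0.05) then removed 315 and 358 doublets. Clustering used scanpy 1.11.5 and leidenalg 0.10.2 (2000 variable genes, 30 components, 15 neighbours, resolution 0.5, seed 1), after leaving out the listed cell cycle genes and genes correlated with the member score at r of at least 0.15, 1064 in all. No batch correction was applied. A cluster was named where at least 3 markers reached 20 CPM and their mean relative level reached 0.15. Class totals of UMIs in each library were scaled to CPM. A ratio has an exact conditional binomial interval, which treats counts as Poisson and is therefore wider than needed for shares. For gene levels it treats each UMI as independent, although most UMIs of a member lay in the dividing cells. Intervals of gene ratios therefore leave out the spread between cells and are too narrow. A share has a Clopper-Pearson interval (95%). A gene counted as measured from 20 CPM in either library, and as higher or lower from a fold of 1.2, a rule of size with no test behind it.

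All 40 members may be named, as well as the 10 genes outside the lists that correlate most with the score in granulosa-like cells, up to 4 genes per pathway list and the markers. The members and lists were chosen with earlier results of these data known. The ratios and the thinning were tested on simulated data. Alternatives covered the threshold, depth, seed, doublets, mitochondrial limit, clustering, CPM minimum, fold and weighting. Promoter windows came from RefSeq.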

Additional observations from a re-analysis of the deposited data

How the results depend on the processing

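The PS-MP over control ratio of the granulosa-like dividing share stayed between 1.19 and 1.23 under 14 alternatives, and came to 1.09 with sub-clusters weighted alike and to 1.04 with clusters weighted by the cells of both libraries. The last setting, the settings without cluster 0 and without sub-clusters 9 to 11, and the limit on granulosa-marker UMIs were chosen after seeing the data. The shares themselves, control then PS-MP, were 40.7% and 48.8% at a threshold of 3 UMIs, 24.5% and 29.1% at 10 UMIs, 30.1% and 36.4% with UMIs on at least 5 different members, 31.3% and 37.5% without thinning, and 29.3% and 35.6% without the 3 most abundant members. The PS-MP share was 40.8% at 5000 UMIs and the control share 33.6% with at most 15% mitochondrial counts. The ratio in theca-like cells turned from 2.14 to 0.750 with all variable genes and 0.685 at resolution 1.0. That in luteal-like cells turned from above 1 to 0.717 with at most 15% mitochondrial counts. With under 10 granulosa-marker UMIs the luteal-like ratio came to 6.62, with an interval of 1.06 to 274. The cause of these changes was not tested. Under the other 11 alternatives of each, the ratios ran from 0.842 to 2.40 in theca-like and from 1.27 to 2.63 in luteal-like cells. The 2 members at least 1.2-fold higher in granulosa-like cells became 1 at 50 CPM, 13 at a fold of 1.1, 1 at a fold of 1.5 and 4 with thinned UMIs; the median log2 ratio was 0.15 with thinned UMIs and 0.020 with sub-clusters weighted alike. In dividing granulosa-like cells the 1 member higher became 0 at a fold of 1.5. The 1 member lower became 14 at a fold of 1.1 and 0 at a fold of 1.5. That count became 3 with thinned UMIs or without cluster 0, and 2 with doublets kept or at a threshold of 10 UMIs. The share of all genes called under each setting is not given here, so these member counts have no background. No paired analysis was possible because each group had 1 library. The number of cells limits the classes under 200 cells in a library, and no interval covers differences between mice.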
